A study of Mus musculus with 15 samples.

Results

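The interferon regulatory factor (IRF) genes were followed in mouse CD8+ T cells before and after antigen stimulation. The family was taken as the 8 genes Irf1, Irf2, Irf3, Irf4, Irf5, Irf7, Irf8 and Irf9, found by symbol among the 17493 genes of the count tables. All 8 passed the filter on low counts, which left 10831 genes. They were grouped by what is known to raise them in T cells: Irf4 and Irf8 by the antigen receptor, Irf1, Irf7 and Irf9 by interferon, and Irf2, Irf3 and Irf5 as the rest.

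The cells were CD8+ OT-I T lymphocytes from the spleen and lymph nodes of female C57BL/6-Tg(TcraTcrb)1100Mjb mice, whose transgenic receptor recognises an ovalbumin peptide on MHC class I. Every group carried this receptor, so the response is that of 1 receptor and not of a mixed repertoire. The 5 groups of 3 libraries were unstimulated cells at 0 h, cells kept with immunofilaments (IF) for 8 h, the same for 22 h, and cells kept with dendritic cells (DC) for each of these times. No unstimulated cells were kept for 8 h or 22 h. Changes against unstimulated cells therefore cannot be told apart from those of time in culture. Immunofilaments are synthetic polymers, here decorated with SIITFEKL-loaded MHC and interleukin-2 and given at 5 ng/ml, and they contain no living cell. The dendritic cells had been raised with Flt-3 ligand and pulsed with SIITFEKL, a variant of the ovalbumin peptide, and 20000 were added to 50000 T cells per well. Both stimuli thus differ in more than the presence of a cell, since interleukin-2 was attached to the immunofilaments. Viable CD8+ CD103- cells were then sorted, and ages and the number of animals are not given in the sources used here. The titles mark the libraries of every group Don1 to Don3, a tag that may stand for donor animals shared between groups but is not spelled out in the labels. The fits leave the number out unless stated, and p-values measure the spread between these libraries, which may be between animals or in part technical.

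IRF proteins share a DNA-binding domain that reads repeats of GAAA, the core of the interferon-stimulated response element (ISRE). Type I interferon acts through a complex that holds Irf9 and switches on antiviral genes, Irf7 among them, and Irf7 in turn amplifies interferon production. Interferon gamma acts through GAS elements, and Irf1 is a classic target. Irf4 and Irf8 bind DNA poorly alone and work with partners of the BATF-JUN or PU.1 and Spi-B type, and in CD8 T cells Irf4 rises with the strength of the antigen receptor signal and sustains effector growth.

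The promoters of Irf1, Irf2 and Irf8 are shown because they hold matches to the elements through which these pathways act. They are the 250 bases before the RefSeq start on GRCm38.p6, on the plus strand, with matches in capitals: chr11:53769764-53770013 for Irf1, chr8:46739495-46739744 for Irf2 and chr8:120736108-120736357 for Irf8.
Irf1: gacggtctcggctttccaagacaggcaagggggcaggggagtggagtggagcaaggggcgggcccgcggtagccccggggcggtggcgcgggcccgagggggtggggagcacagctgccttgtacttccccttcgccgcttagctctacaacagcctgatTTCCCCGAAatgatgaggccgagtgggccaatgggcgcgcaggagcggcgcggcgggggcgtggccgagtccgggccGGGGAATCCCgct
Irf2: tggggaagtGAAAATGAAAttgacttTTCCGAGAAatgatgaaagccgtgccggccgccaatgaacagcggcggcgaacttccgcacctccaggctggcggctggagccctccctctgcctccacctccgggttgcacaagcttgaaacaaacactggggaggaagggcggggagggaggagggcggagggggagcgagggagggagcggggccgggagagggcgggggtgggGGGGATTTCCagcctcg
Irf8: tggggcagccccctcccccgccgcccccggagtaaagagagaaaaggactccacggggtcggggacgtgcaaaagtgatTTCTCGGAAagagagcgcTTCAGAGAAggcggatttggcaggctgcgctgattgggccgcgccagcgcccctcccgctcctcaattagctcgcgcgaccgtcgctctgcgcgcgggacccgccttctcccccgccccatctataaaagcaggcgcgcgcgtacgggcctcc
All 8 members were matched in RefSeq, with 11 start windows, and 4 motifs were searched on both strands: the ISRE core (GAAA, any 2 bases, GAAA), the GAS element TTCNNNGAA, the AP-1 site TGANTCA and the NF-κB site. Irf1 held a GAS match beginning 90 bases before the start and an NF-κB match at 13 bases. Irf2 held an ISRE core at 241 bases, a GAS match at 224 and an NF-κB match at 17. Irf8 held GAS matches at 171 and 153 bases. The other 5 members had none of these letters in their windows, and no member had the AP-1 letters. Among all 32851 windows of this length, 2.98% held the ISRE core, 7.02% the GAS element, 6.75% the AP-1 site and 7.25% the NF-κB site. These are matches of letters and not measured binding.

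Library totals ran from 2892874 to 19806730 counts, and Irf5 was the least covered member with 0 to 31 counts per library, while the other 7 had at least 49. T cell markers were present: the 8 genes for the CD3 chains, Cd8a, Cd8b1, Lck and Thy1 summed to 9988 to 10846 CPM (counts per 1000000) in unstimulated libraries and 4672 to 7185 CPM in stimulated ones, and Cd4 was at 0 in 14 of 15 libraries. Dendritic cell markers were present in every group, including unstimulated cells: the 18 listed genes summed to 1049 to 1881 CPM there, 479 to 763 with IF and 1211 to 1590 with DC after 8 h, and 601 to 845 with IF and 706 to 1001 with DC after 22 h. Ccr7, which naive T cells also express, gave 206 to 344 CPM of each sum, and Fscn1 and Ccl22 were at 0 to 6.75 and 0 to 0.147 CPM in unstimulated cells. B cell, macrophage, NK, neutrophil and erythrocyte lists summed to at most 46.0 CPM in any library.

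Libraries of 3 groups stood apart from the rest. Both DC libraries numbered 2 had 63 genes more than 0.5 log2 units above every other library, and Irf8 was among them. The DC 22 h library numbered 2 alone had 73 genes more than 2-fold above all others, against 0 to 28 in the other 14. In IF 22 h, libraries 2 and 3 held 0.179% and 0.146% mitochondrial ribosomal RNA against 1.82% to 4.49% elsewhere, and both fell short of every other library by over 2-fold at 114 genes, none of them an IRF member. Among the 114 were Xaf1, a type I interferon target, and Gbp7 and Irgm1, targets of interferon gamma. Fits without these libraries were added after their values were seen, and their values are given where they change a call of a member.

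**Figure D1:**
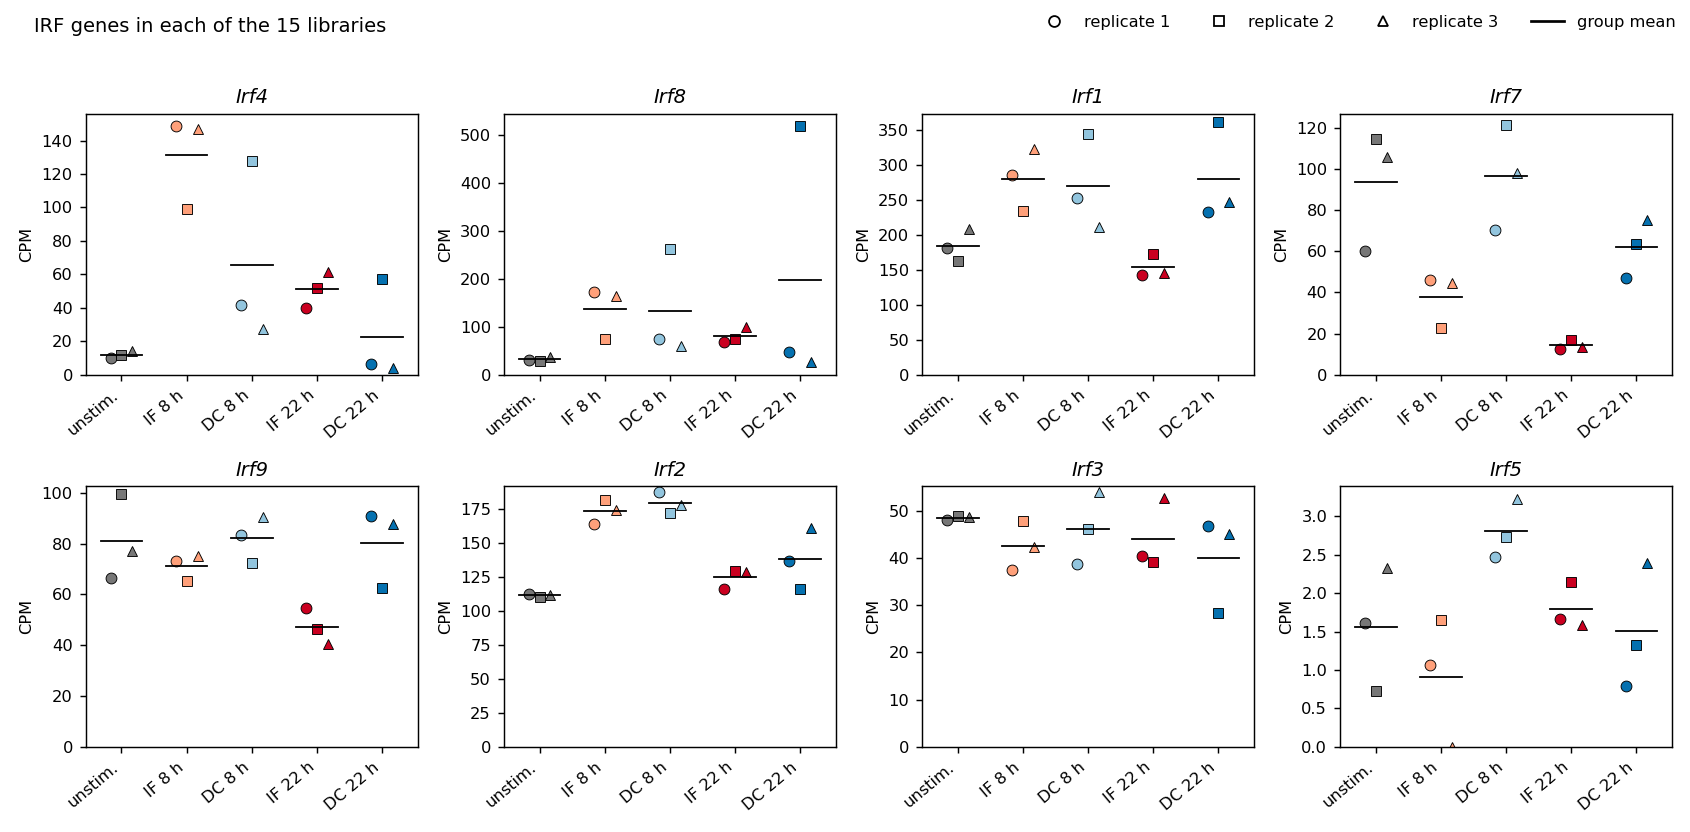
Expression of the 8 IRF genes in CPM (y axes, each from 0) in the 5 groups (x axes), with 1 symbol per library shaped by its number and a line at the group mean. Irf4 is above all unstimulated libraries in every IF library, Irf7 is at 12.5 to 17.0 CPM in IF 22 h against 47.0 CPM or more in both DC groups, and both squares of the DC groups stand high for Irf4 and Irf8.

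Irf4 and Irf2 rose and Irf7 fell after 8 h of immunofilaments, and by 22 h the interferon driven members were lower with immunofilaments than with dendritic cells. Against unstimulated cells, 3 of 8 members were called at IF 8 h (7.76% of all genes), 1 at DC 8 h (Irf2 higher, 6.82%), 2 at IF 22 h (Irf7 and Irf9 lower, 6.08%) and 0 at DC 22 h (7.76%), by edgeR with an adjusted p under 0.05. At DC 22 h, 2 members had an unadjusted p under 0.05 in edgeR, and DESeq2 called 1, Irf1. IF and DC differed at 1 member at 8 h, where 0.665% of all genes were called, and at 3 members at 22 h, where 2.43% were. All 3 interferon driven members were lower with IF at 22 h, and neither antigen receptor driven member was called there. Leaving out 1 library gave 0 to 3 members at IF 8 h, with 1 without unstimulated library 1 or 3 and 0 without library 2. Over all genes those fits called 463, 456 and 438, against 840 with all libraries. Between stimuli, leaving out 1 library gave 0 to 1 members at 8 h and 1 to 3 at 22 h. At 22 h Irf7 alone was called without IF 22 h library 2 or 3 or DC 22 h library 1, beside 99, 90 and 119 of all genes. With all libraries 263 genes were called there, and 759 without IF 22 h library 1. At 8 h, 27 to 47 genes were called without any 1 IF 8 h library or DC 8 h library 2 or 3, against 72 with all libraries. The count of members at 8 h was then 0. Without both IF 22 h libraries 2 and 3 the count at 22 h was 0, in a fit that called 8 of 11889 genes, with log2 differences of -0.97 for Irf1, -2.31 for Irf7 and -0.56 for Irf9.

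**Figure D2:**
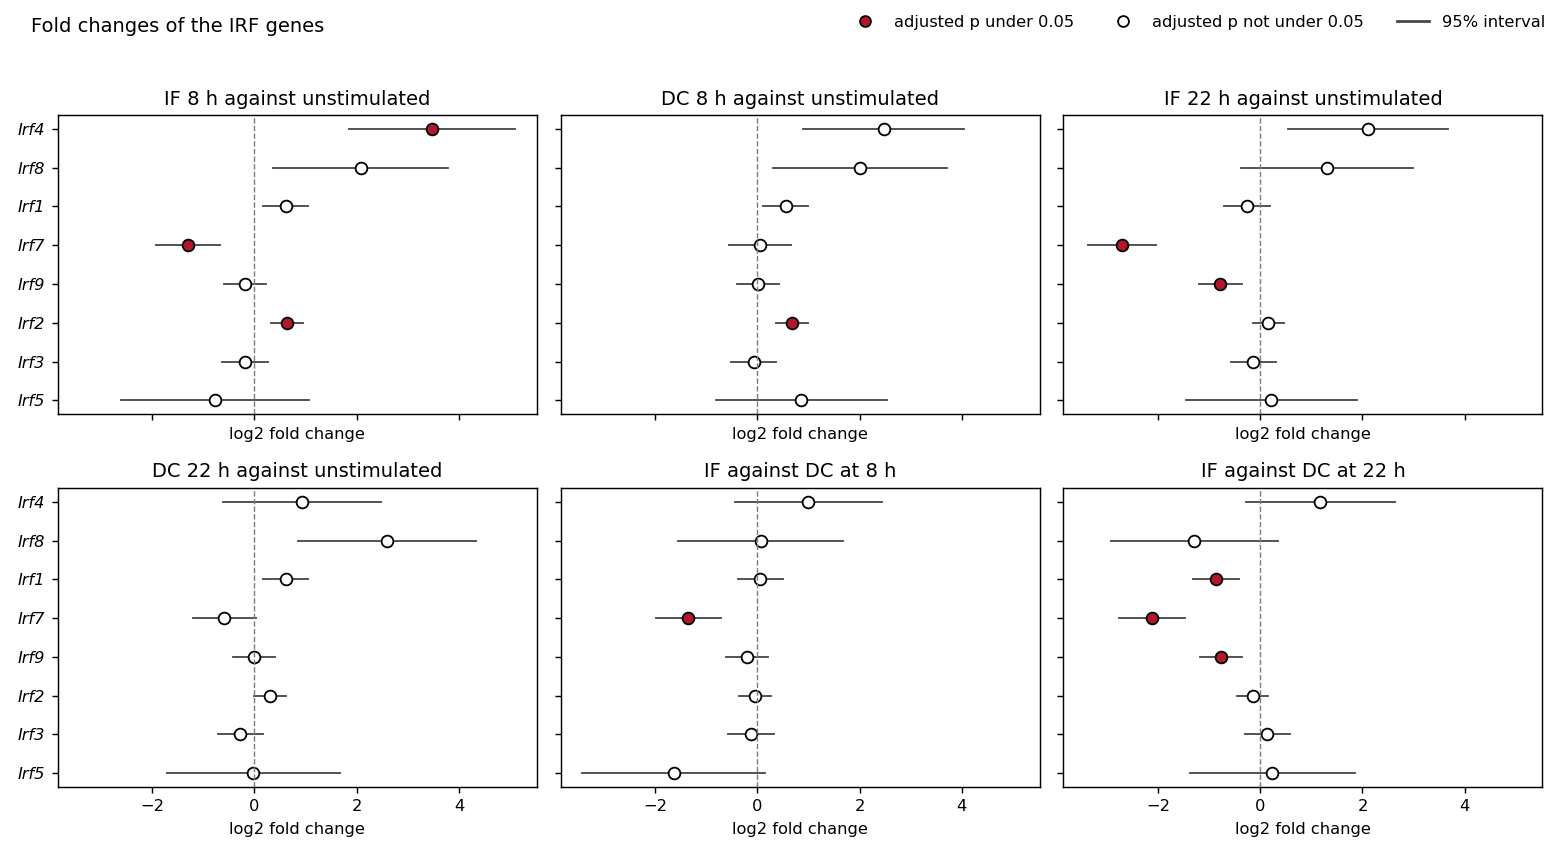
Log2 fold changes of the 8 IRF genes (x axes) in 6 comparisons, with 95% intervals as lines and filled symbols where the edgeR adjusted p is under 0.05. At 22 h the filled symbols of IF against DC are Irf1, Irf7 and Irf9, at -0.86, -2.11 and -0.77, while the intervals of Irf4 and Irf8 include 0.

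Irf4 (chr13:30749226-30766976, plus strand) is the IRF most closely tied to antigen receptor signal strength. It stood at 10.3, 11.6 and 14.0 CPM in the 3 unstimulated libraries and at 148, 99.1 and 147 CPM after 8 h of IF. After 8 h of DC it stood at 41.8, 128 and 27.6 CPM. All 6 stimulated libraries were above all unstimulated ones at this time, and the DC library numbered 2 lay within the IF range while both others lay below it. Against unstimulated cells the IF 8 h change was an 11.1-fold rise, a log2 fold change of 3.47 ± 0.77 (SE, 3 libraries a group) with an adjusted p of 0.0115 by edgeR. For DC 8 h the log2 fold change was 2.47 ± 0.74 with an adjusted p of 0.0568. In a population of sorted cells, fewer responding cells and less RNA per cell cannot be told apart.

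At 22 h the levels of Irf4 were 39.8, 52.1 and 61.2 CPM with IF and 6.37, 57.5 and 4.19 CPM with DC. All IF libraries remained above all unstimulated ones, whereas DC libraries 1 and 3 were below every unstimulated library and DC library 2 was above. The log2 fold change against unstimulated cells was 2.11 ± 0.74 for IF (adjusted p 0.108) and 0.93 ± 0.73 for DC (adjusted p 0.489). In order of group means Irf4 ran from IF 8 h through DC 8 h, IF 22 h and DC 22 h to unstimulated cells, and each pair of neighbours in that order overlapped.

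Since 1 model was fitted to all groups, the spread of Irf4 between DC libraries enters the error of every Irf4 comparison. Without both DC libraries numbered 2 the change was 3.47 ± 0.25 at IF 8 h (adjusted p 4.40e-07), 1.55 ± 0.26 at DC 8 h (adjusted p 0.00217) and 2.12 ± 0.24 at IF 22 h (adjusted p 5.38e-05). At DC 22 h it was then -1.16 ± 0.30 (adjusted p 0.0290), the opposite direction to the value with all libraries. IF exceeded DC by 1.92 ± 0.27 at 8 h (adjusted p 0.00221) and by 3.28 ± 0.30 at 22 h (adjusted p 2.35e-05) in that fit, against 1.00 ± 0.68 (adjusted p 0.794) and 1.18 ± 0.69 (adjusted p 0.453) with all libraries. The call at IF 8 h was lost without unstimulated library 1 (adjusted p 0.0567) or 2 (adjusted p 0.0539), and DC 8 h gained one without DC 8 h library 3 (2.85, adjusted p 0.0387). Without DC 22 h library 2 alone, IF exceeded DC at 22 h by 3.28 ± 0.53 (adjusted p 0.00274). The DC 8 h rise also passed the threshold with all libraries of its groups under DESeq2 (0.0370), library size alone (0.0323), thinning to the smallest library (0.0372), no low-count filter (5.13e-12) and a fit of only the groups compared (0.00892). The IF 22 h rise passed it in the last 2 of these fits (3.27e-09 and 0.000549), and with no filter so did the DC 22 h rise (0.0316) and the IF-DC differences at 8 h (0.0409) and 22 h (0.00247).

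Irf8 (chr8:120736358-120756694, plus strand), best known in dendritic and B cell development and also raised by the antigen receptor in CD8 T cells, followed the same libraries. Unstimulated cells had 31.4, 29.8 and 37.2 CPM. At 8 h the IF libraries had 174, 74.9 and 165 CPM and the DC libraries 74.4, 262 and 60.2 CPM. At 22 h the IF libraries had 69.0, 74.3 and 99.2 CPM and the DC libraries 46.7, 519 and 27.3 CPM. Every stimulated library except DC 22 h library 3 was above all unstimulated ones, and the DC library numbered 2 was the highest of its time at 8 h and at 22 h.

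No change of Irf8 passed the threshold in the 15-library fit with TMM scaling and the low-count filter. The log2 fold changes against unstimulated cells were 2.08 ± 0.81 for IF (adjusted p 0.134) and 2.01 ± 0.81 for DC (adjusted p 0.156) at 8 h, and 1.30 ± 0.79 for IF (adjusted p 0.384) and 2.59 ± 0.82 for DC (adjusted p 0.0642) at 22 h. Without both DC libraries numbered 2 they were 2.08 ± 0.28 (adjusted p 0.000197), 1.03 ± 0.30 (adjusted p 0.0563), 1.32 ± 0.28 (adjusted p 0.00669) and 0.19 ± 0.31 (adjusted p 0.791). With all libraries kept, the DC 22 h change passed the threshold when library size alone was used for scaling (adjusted p 0.0290), when libraries were thinned to the smallest (0.0487) and when the low-count filter was dropped (4.31e-14). Dropping the filter also brought the IF 8 h, DC 8 h and IF 22 h changes past it, and the IF-DC difference at 22 h (adjusted p 0.000455). In fits of only the groups compared, the rises at IF 8 h (adjusted p 0.000271), DC 8 h (0.0196) and IF 22 h (0.00251) passed it as well. The DC 22 h value of Irf8 rests on library 2, and it passed the threshold without library 1 (adjusted p 0.0359) or library 3 (adjusted p 0.0112) of that group. Its difference between stimuli at 22 h was -1.29 ± 0.77 with all libraries and 1.13 ± 0.31 without both, and neither passed the threshold (adjusted p 0.467 and 0.0643).

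**Figure D3:**
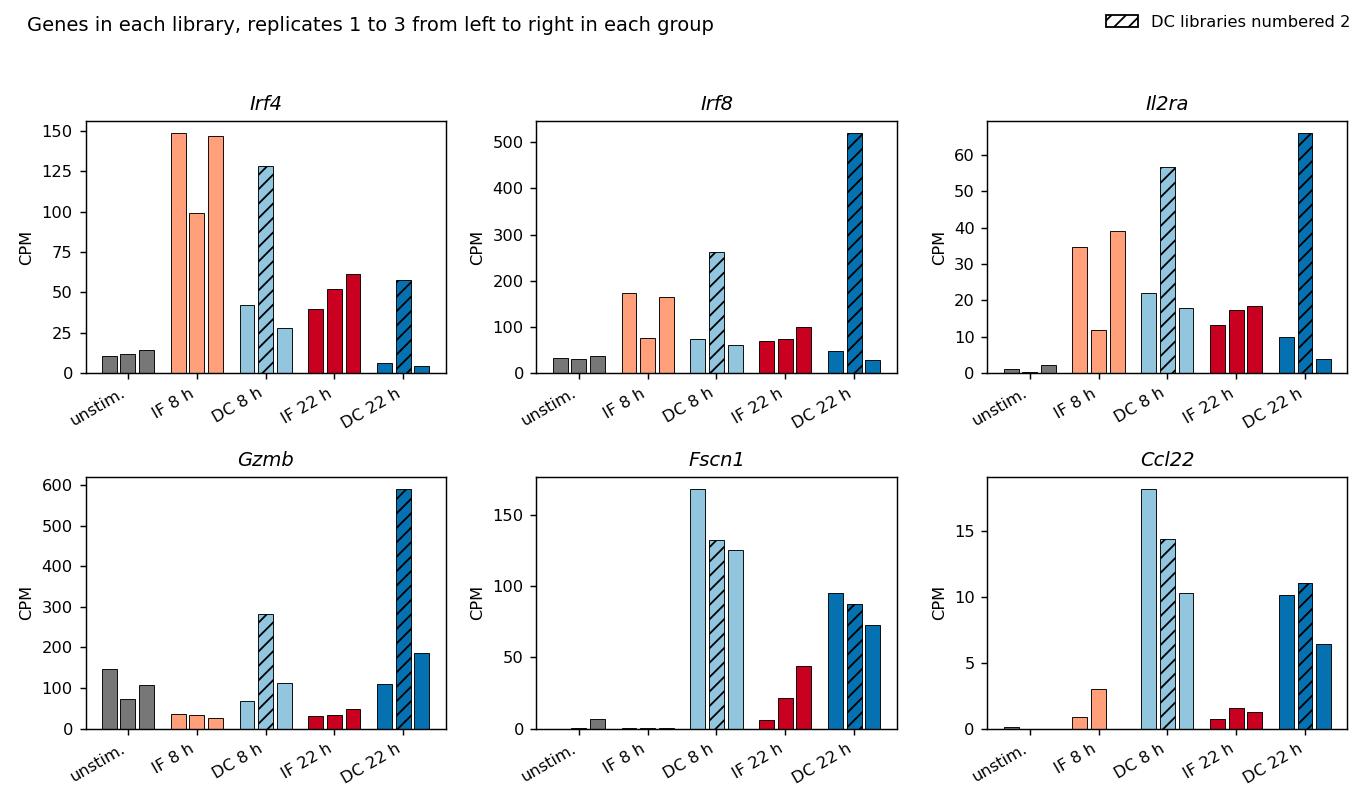
Expression in CPM (y axes from 0) of Irf4, Irf8, the activation genes Il2ra and Gzmb and the dendritic cell markers Fscn1 and Ccl22, with 1 bar per library and the DC libraries numbered 2 hatched. The hatched bars are the highest DC bars of their time for Irf4, Irf8, Il2ra and Gzmb, while for Fscn1 they lie at 132 and 87.6 CPM, between the other libraries of their group, and for Ccl22 the one at 22 h is the highest of its group.

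Some activation genes were high in the same DC libraries and others were not, and dendritic cell markers were mixed. The genes here were chosen after their values were seen. Il2ra, the high-affinity interleukin-2 receptor chain, stood at 22.0, 56.8 and 17.9 CPM at DC 8 h and at 10.0, 66.0 and 3.93 CPM at DC 22 h. Gzmb, which encodes granzyme B, stood at 110, 591 and 187 CPM at DC 22 h. Ctla4 stood at 16.8, 16.5 and 12.8 CPM at DC 8 h and at 21.7, 18.7 and 13.9 CPM at DC 22 h. Il2ra and Gzmb were thus highest in library 2 of each DC group named, and Ctla4 was not. Fscn1, a gene of mature dendritic cells, stood at 168, 132 and 126 CPM at DC 8 h and at 94.8, 87.6 and 72.9 CPM at DC 22 h. Cd86, a costimulatory ligand gene of dendritic cells, stood at 3.27, 4.72 and 2.64 CPM at DC 8 h and at 3.30, 3.65 and 2.56 CPM at DC 22 h. Library 2 was thus highest for Cd86 and not for Fscn1. Cd86 was low in all groups, with 1.47, 4.16 and 1.40 CPM in unstimulated cells. The 18 dendritic cell markers summed to 1590, 1211 and 1430 CPM at DC 8 h and to 957, 706 and 1001 CPM at DC 22 h, lowest in library 2 each time, and their part in the Irf4 and Irf8 values was not tested.

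Genes that Irf4 is known to support in CD8 T cells, or that Batf and Irf4 bind together, rose in part. Of 16 listed, 5 were called higher and 0 lower with either stimulus at 8 h, and at 22 h 3 were called higher with IF and 4 with DC while 0 were called lower. Without a call, Gzmb and Bhlhe40 lay below all unstimulated libraries in every IF library. Beside these counts, 3.04%, 2.75%, 2.63% and 3.41% of all genes tested were called higher, and all 4 comparisons share the unstimulated libraries. Il2ra, the checkpoint receptor gene Ctla4 and the costimulatory receptor gene Tnfrsf9 were called in all 4. Tnfrsf9 rose by 5.13 ± 0.64 on the log2 scale at IF 8 h (adjusted p 0.000107), and Ctla4 by 2.43 ± 0.28 at DC 22 h (adjusted p 8.43e-05). The list's median log2 fold change was 0.24 with IF and 0.69 with DC after 8 h, and 0.28 and 0.70 after 22 h, against 0.02, 0.04, 0.01 and 0.04 over all genes.

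Between stimuli the same list gave no higher gene with IF. At 22 h, 0 of 16 were higher and 3 were lower with IF than with DC, where 1.23% of all genes were called higher and 1.20% lower. Gzmb stood at 31.1, 33.7 and 48.9 CPM with IF, below all 3 DC libraries, a log2 fold change of -2.96 ± 0.56 (adjusted p 0.00804). The DC libraries had 110, 591 and 187 CPM of Gzmb and the unstimulated ones 147, 73.0 and 108 CPM. Ctla4 was lower with IF by -1.03 ± 0.25 (adjusted p 0.0369), and Bhlhe40, a transcription factor gene, by -1.97 ± 0.43 (adjusted p 0.0219). Bhlhe40 stood at 3.33, 4.30 and 3.16 CPM with IF, 9.33, 22.0 and 10.8 CPM with DC and 7.34, 7.05 and 9.54 CPM in unstimulated cells.

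Of 9 genes known to rise in CD8 T cells that lack Irf4, 1 was higher and 1 lower at both 8 h points, 1 was higher and 2 lower at IF 22 h, and 0 were higher and 1 lower at DC 22 h. Over all genes, 3.04%, 2.75%, 2.63% and 3.41% were called higher and 4.72%, 4.07%, 3.44% and 4.35% lower at IF 8 h, DC 8 h, IF 22 h and DC 22 h. Foxo1, a quiescence factor gene, was the gene that fell in all 4 comparisons, by 0.85 to 1.02 on the log2 scale. Eomes, a T-box factor of memory and effector cells, was the gene that rose. It stood at 240, 296 and 289 CPM at IF 22 h and at 53.2, 107 and 42.0 CPM at DC 22 h, a difference of 2.04 ± 0.33 on the log2 scale (adjusted p 0.00249). The Eomes groups did not overlap.

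Partner factors of Irf4 and Irf8 were called in both directions. Of 10 tested, 0 rose and 3 fell with IF and 2 rose and 4 fell with DC after 8 h, and 1 rose and 2 fell with IF and 1 rose and 5 fell with DC after 22 h. Over all genes, the shares called higher were 3.04%, 2.75%, 2.63% and 3.41% and those called lower 4.72%, 4.07%, 3.44% and 4.35%, in the same order. Junb, an AP-1 subunit gene, stood at 626, 753 and 777 CPM in unstimulated cells and at 64.3 to 215 CPM in all stimulated libraries. Batf, the partner that joins Irf4 at composite sites, stood at 21.9, 17.3 and 24.7 CPM in unstimulated cells, 18.7, 19.6 and 19.0 CPM at IF 8 h and 33.2, 45.8 and 32.3 CPM at DC 8 h. Its DC 8 h libraries were above all others, with a rise of 0.80 ± 0.20 against unstimulated cells (adjusted p 0.0244) and an IF-DC difference of -0.96 ± 0.21 (adjusted p 0.0425). Spib, which encodes Spi-B and is also expressed by dendritic and B cells, was at 3.86, 3.97 and 8.66 CPM at DC 8 h and at most 0.233 CPM in unstimulated cells. Batf and Spib were the 2 genes that rose at DC 8 h. Of the 18 dendritic cell markers, Fscn1 and Ccl22 were high in the same libraries, while Itgax, Xcr1 and Cst3 were lower there than in every unstimulated library. The 18 summed to 1211 to 1590 CPM at DC 8 h and to 1049 to 1881 CPM in unstimulated cells. What part dendritic cell RNA has in the Spib value was not tested.

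Irf7 (chr7:141262706-141266481, minus strand), the amplifier of type I interferon responses, showed the largest fall among the members. It stood at 60.3, 114 and 106 CPM in unstimulated cells. With IF it stood at 45.9, 22.5 and 44.5 CPM at 8 h and at 12.5, 17.0 and 13.6 CPM at 22 h. With DC it stood at 70.4, 121 and 98.2 CPM at 8 h and at 47.0, 63.5 and 75.1 CPM at 22 h. Both IF groups lay wholly below the unstimulated and DC 8 h libraries, and IF 22 h lay wholly below every other group.

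In tests, Irf7 fell 2.46-fold at IF 8 h, a log2 fold change of -1.30 ± 0.30 (adjusted p 0.0146), and 6.51-fold at IF 22 h, a log2 fold change of -2.70 ± 0.31 (adjusted p 6.92e-05). The DC changes were 0.05 ± 0.29 at 8 h (95% interval -0.56 to 0.66) and -0.59 ± 0.29 at 22 h (-1.20 to 0.02), and neither passed the threshold. IF against DC gave -1.35 ± 0.30 at 8 h (adjusted p 0.0491) and -2.11 ± 0.31 at 22 h (adjusted p 0.00101), a 4.32-fold lower level at 22 h. Within the IF arm Irf7 fell by a further 1.40 ± 0.31 on the log2 scale from 8 h to 22 h (adjusted p 0.0391).

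The falls of Irf7 at IF 22 h, against unstimulated cells and against DC, passed the threshold with each library left out in turn. Without both IF 22 h libraries 2 and 3 they were -2.90 ± 0.52 (adjusted p 0.0152) and -2.31 ± 0.50 (adjusted p 0.147), with library 1 alone in that group and its spread assumed to be that of the others. The 8 h difference between stimuli was lost without both DC libraries numbered 2 (-1.14, adjusted p 0.115), without any 1 of the IF 8 h libraries (adjusted p 0.0927, 0.194 and 0.122) and without DC 8 h library 2 (0.167) or 3 (0.126). With the Don number as a block in the fit it was -1.29 ± 0.28 (adjusted p 0.0598). The IF 8 h fall was lost without unstimulated library 2 (0.0662) or 3 (0.0559) or IF 8 h library 2 (0.0570), and the fall from 8 h to 22 h of IF without IF 8 h library 1 (0.152) or 3 (0.167) or IF 22 h library 2 (0.101) or 3 (0.182) or both (0.611). In fits of only the groups compared, the 8 h difference between stimuli (0.0747) and the fall from 8 h to 22 h of IF (0.0534) were lost too. The last 45 bases of Irf7 overlap Phrf1 on the opposite strand, and Phrf1 stayed between 21.6 and 34.3 CPM in all 15 libraries.

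Irf9 (chr14:55603571-55610030, plus strand), the DNA-binding part of the complex formed after type I interferon, moved less. It stood at 66.6, 99.6 and 77.0 CPM in unstimulated cells and at 73.0, 65.3 and 75.3 CPM at IF 8 h. At IF 22 h it stood at 54.8, 46.5 and 40.4 CPM, below all other libraries, and at DC 22 h at 91.0, 62.4 and 87.8 CPM. DC 8 h libraries, at 83.4, 72.4 and 90.6 CPM, lay within the unstimulated range. Irf9 was 1.72-fold lower at IF 22 h than in unstimulated cells (-0.78 ± 0.20, adjusted p 0.0270) and lower than at DC 22 h by a similar amount (-0.77 ± 0.20, adjusted p 0.0477). Each call was lost without IF 22 h library 2 (adjusted p 0.0955 and 0.196) or library 3 (0.136 and 0.239). The first was also lost without unstimulated library 2 (0.139) or 3 (0.0611), and the second without DC 22 h library 1 (0.177) or 3 (0.111). The first was lost with library size alone as well (0.0943), and the second with the Don number as a block in the fit (0.0697), with thinning to the smallest library (0.0558) and with only the groups compared (0.196). Without both IF 22 h libraries 2 and 3 they were at 0.538 and 0.973.

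Irf1 (chr11:53770014-53778374, plus strand), the interferon gamma target, had no call against unstimulated cells in the 15-library edgeR fit with TMM scaling and the low-count filter. It stood at 181, 162 and 209 CPM in unstimulated cells, at 285, 234 and 323 CPM at IF 8 h and at 253, 345 and 212 CPM at DC 8 h. At 22 h it stood at 143, 173 and 146 CPM with IF and at 233, 362 and 247 CPM with DC. All stimulated libraries except those of IF 22 h were above all unstimulated ones. The changes against unstimulated cells were 0.61 ± 0.21 for IF (adjusted p 0.0886) and 0.55 ± 0.21 for DC (adjusted p 0.132) at 8 h, and -0.26 ± 0.21 for IF (adjusted p 0.539) and 0.61 ± 0.21 for DC (adjusted p 0.0902) at 22 h. The IF 8 h rise passed the threshold with library size alone (0.0174), with no low-count filter (0.0449), with only the groups compared (0.0170) and without both DC libraries numbered 2 (0.0126). With library size alone the DC rises passed it at 8 h (0.0214) and 22 h (0.00829), and the latter also with no filter (0.0358) and in DESeq2 (0.0499).

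Between stimuli, Irf1 differed at 22 h by -0.86 ± 0.21 on the log2 scale, 1.82-fold lower with IF (adjusted p 0.0369), and at 8 h by 0.06 ± 0.21 (95% interval -0.38 to 0.50). The 22 h call was lost without any 1 of IF 22 h libraries 1, 2 and 3 (adjusted p 0.0516, 0.0914 and 0.165) or DC 22 h libraries 1 and 2 (0.0501 and 0.106), without both IF 22 h libraries 2 and 3 (0.515) and with only the groups compared (0.127). It held without both DC libraries numbered 2, at -0.65 ± 0.16 (adjusted p 0.0371).

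Targets of type I interferon lay low in the same libraries as Irf7. Of 28 genes tested against the shared unstimulated libraries, 2 were higher and 8 lower with IF and 2 were higher and 0 lower with DC after 8 h. After 22 h, 0 were higher and 21 lower with IF, and 2 were higher and 2 lower with DC. Genes called lower made up 4.72%, 4.07%, 3.44% and 4.35% of all genes in these comparisons, in that order. Summed over the 29 list genes in the tables, expression was 1084 to 1668 CPM in unstimulated cells, 581.5 to 1059 with IF and 1290 to 1961 with DC after 8 h, and 360 to 434 with IF and 1176 to 1461 with DC after 22 h. The IF sums lay below the unstimulated and DC sums at each time.

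Between stimuli, 0 of the 28 were higher and 4 lower with IF at 8 h, where 0.231% of all genes were called higher and 0.434% lower. At 22 h 0 were higher and 21 lower, beside 1.23% and 1.20% of all genes, and the list's median log2 difference was -2.00 against -0.02 over all genes. Rtp4, an interferon-induced chaperone gene, stood at 15.1, 15.9 and 16.6 CPM with IF and at 143, 133 and 129 CPM with DC at 22 h, a log2 difference of -3.09 ± 0.27 (adjusted p 1.40e-05). Isg15, the ubiquitin-like antiviral modifier, differed by -4.19 ± 0.55 (adjusted p 0.000521). Cxcl10 and Parp14, named here after their values were seen, were the 2 genes that rose at 8 h with either stimulus and at 22 h with DC. Leaving out 1 library gave 11 to 21 genes lower than with DC, with 11 without IF 22 h library 3, and a fit of only the groups compared gave 10. Without both IF 22 h libraries 2 and 3, 11 genes were lower than in unstimulated cells and 1 was lower than with DC, and Rtp4 was that gene. That fit called few genes of any kind: of 11889, it called 99 (57 lower) against unstimulated cells and 8 (3 lower) against DC.

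Targets of interferon gamma and Irf1 took another course. Of 19, 5 rose and 0 fell at IF 8 h and at DC 8 h, where 3.04% and 2.75% of all genes were called higher. At 22 h, 0 rose and 4 fell with IF, where 3.44% of all genes were called lower, and 4 rose and 0 fell with DC, where 3.41% were called higher. Gbp3, a guanylate-binding protein gene, stood at 10.7, 3.43 and 12.6 CPM in unstimulated cells, at 36.6, 24.2 and 38.6 CPM at IF 8 h and at 28.5, 40.7 and 25.0 CPM at DC 8 h. By 22 h it stood at 9.52, 14.6 and 9.39 CPM with IF and at 23.1, 22.6 and 17.2 CPM with DC. Gbp3 was thus above the unstimulated range in every library of the other 3 stimulated groups, and overlapped it at IF 22 h. From 8 h to 22 h of IF, 9 of the 19 fell and 0 rose, where 0.480% of all genes were called lower. At 22 h 5 were lower with IF than with DC, where 1.20% of all genes were, among them Psmb9, an immunoproteasome subunit gene (-1.14 ± 0.21, adjusted p 0.00804). Gbp7 and Irgm1, 2 of the 5, were low in the IF 22 h libraries that stood apart: Irgm1 was at 10.8, 1.55 and 1.38 CPM there and Gbp7 at 106, 39.1 and 23.9 CPM.

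The counts of this list depended on single libraries. Leaving out 1 library gave 3 to 6 genes higher at each 8 h point, with 3 at both points without unstimulated library 1 or 3, at IF 8 h without IF 8 h library 1 or 3, and at DC 8 h without DC 8 h library 2. Without unstimulated library 1 or 3, 174 and 160 of all genes were higher at IF 8 h and 188 and 192 at DC 8 h, against 329 and 298 with all libraries. Library size alone gave 10 and 9 list genes, beside 849 and 859 of all genes. At IF 22 h the 4 lower genes became 0 without unstimulated library 1, 2 or 3 or IF 22 h library 3, beside 228, 189, 192 and 160 lower of all genes. They became 2 without IF 22 h library 2, beside 202 of all genes, against 373 with all libraries. The 5 lower than with DC became 0 without IF 22 h library 3, beside 49 lower of all genes, against 130 with all libraries. They became 2 without IF 22 h library 2 or DC 22 h library 1, beside 54 and 71, and 1, Psmb9, without DC 22 h library 2, beside 137. The 9 that fell in the IF arm became 0 without IF 8 h library 3 or IF 22 h library 2 or 3, beside 10, 9 and 9 lower of all genes. They became 1 without IF 8 h library 1, beside 15 of all genes, against 52 with all libraries. Without both IF 22 h libraries 2 and 3 these last 3 counts were all 0.

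**Figure D4:**
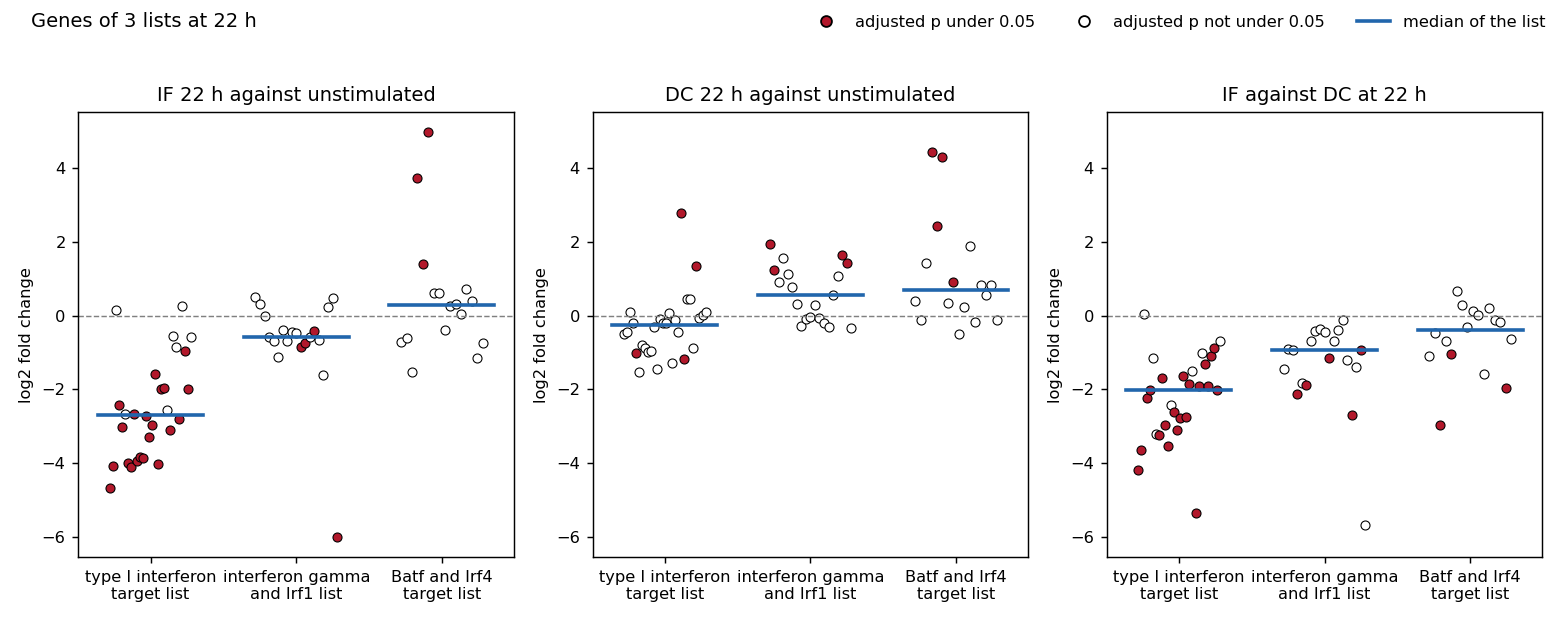
Log2 fold changes (y axes) at 22 h of the tested genes of 3 lists (x axes), with 1 symbol per gene, filled where the adjusted p is under 0.05, and a line at the list's median. In the panel of IF against DC, the type I interferon list has its median at -2.00 and the interferon gamma and Irf1 list at -0.94.

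In the relay from interferon receptors to these genes, Stat2 differed between IF and DC at 22 h by -1.40 ± 0.32 (adjusted p 0.0282). Against unstimulated cells, Ifnar1, a type I interferon receptor chain gene, rose at IF 8 h (0.74 ± 0.20, adjusted p 0.0360) and the kinase gene Jak2 rose at DC 8 h (0.91 ± 0.17, adjusted p 0.00341).

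Of 15 sensors, adaptors and kinases that activate Irf3, Irf5 and Irf7, 0 rose in any of the 4 comparisons with unstimulated cells. With IF, 2 fell at 8 h, where 4.72% of all genes were called lower, and 1 fell at 22 h, where 3.44% were. With DC 0 fell, beside 4.07% and 4.35% of all genes. Ddx58, which encodes the RNA sensor RIG-I and is itself interferon-induced, fell in both IF groups and differed between stimuli at 22 h by -1.14 ± 0.21 (adjusted p 0.00804). Traf6, a signalling adaptor gene, was the other gene that fell at IF 8 h.

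Plasmacytoid dendritic cells, known for high Irf7, were looked for by 7 markers. Siglech, their defining receptor gene, was at 0 to 4.44 CPM in all libraries. The 7 genes summed to 147 to 182 CPM at IF 22 h and to 329 to 347 CPM at DC 22 h, mostly through Ccr9, which T cells also express. The sums of the 18 dendritic cell markers overlapped between IF and DC at 22 h, while the values of Fscn1 and Ccl22 did not. Irf7 and the summed type I interferon list overlapped between DC 8 h and unstimulated cells, where Fscn1 was at 0 to 6.75 CPM. What part dendritic cell RNA has in the IF-DC differences was not tested.

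Irf2 (chr8:46739732-46847458, plus strand), which competes with Irf1 for the same sites, rose with both stimuli at 8 h. It stood at 113, 110.2 and 112 CPM in unstimulated cells, at 164, 182 and 174 CPM at IF 8 h and at 188, 172 and 178 CPM at DC 8 h. At 22 h it stood at 117, 129 and 129 CPM with IF and at 137, 116 and 161 CPM with DC. The 8 h libraries all exceeded every other library. The rise was 1.55-fold for IF (0.64 ± 0.15, adjusted p 0.0149) and 1.61-fold for DC (0.68 ± 0.15, adjusted p 0.00876), and the stimuli differed by -0.05 ± 0.15 (95% interval -0.36 to 0.26). The IF call was lost without any 1 unstimulated library (adjusted p 0.0517, 0.0560 and 0.0527) or IF 8 h library 3 (0.0504), and the DC call held in all 15 alternatives. At DC 22 h the change was 0.31 ± 0.15 (adjusted p 0.227), and with library size alone it passed the threshold (0.64 ± 0.14, adjusted p 0.00846). Of the 3 genes for Irf2 binding proteins, Irf2bpl was lower at DC 8 h and no other change passed the threshold against unstimulated cells.

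Irf3 (chr7:44997648-45002848, plus strand), a constitutive factor activated by phosphorylation, had no call. Its libraries ran from 28.4 to 53.9 CPM, with 48.0, 48.8 and 48.7 CPM in unstimulated cells and group means between 40.1 and 48.5 CPM. The log2 fold changes against unstimulated cells ran from -0.27 to -0.07, with 95% intervals that reach from -0.72 to 0.37 over the 4 comparisons.

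Irf5 (chr6:29526625-29541871, plus strand), which acts downstream of Toll-like receptors in B and myeloid cells, was near the limit of detection. It stood at 0 to 3.23 CPM, and 1 library, IF 8 h number 3, had no count, which allows up to 0.804 CPM (3 counts). The standard errors of its fold changes were 0.77 to 0.87, and no difference was detectable at this depth. Of its last 500 bases, 251 overlap Tnpo3 on the opposite strand, which stood at 10.4 to 33.3 CPM, and how strand was used in counting is not given in the sources used here.

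Exonic bases are shared with a neighbour by 3 further members: Irf3 88 with Bcl2l12 and Irf1 135 with Gm17334 on the opposite strand, and Irf9 123 with Rnf31 on the same strand. None of these lie in the last 500 bases of the member, where its own 3′ tags fall. Where they lie in the neighbour was not looked at, and Rnf31 stood at 24.6 to 47.4 CPM. Irf2, Irf4 and Irf8 overlap no other gene's exons.

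From 8 h to 22 h the log2 fold change of Irf4 was -1.36 ± 0.69 in the IF arm (adjusted p 0.366) and -1.54 ± 0.70 in the DC arm (adjusted p 0.527). Each DC library was lower at 22 h than the library of its number at 8 h. Pairing the DC libraries by number, a choice made from these same data, gave a DC value of -2.10 ± 0.30 (adjusted p 0.0135). That paired fit called 166 of 10182 genes, and a fit of the same libraries without pairing called 0. Without both DC libraries numbered 2 the Irf4 values were -1.35 ± 0.22 in the IF arm (adjusted p 0.00427) and -2.70 ± 0.31 in the DC arm (adjusted p 0.00280). Without DC 22 h library 2 alone the DC value was -3.62 ± 0.53 (adjusted p 0.0110). The IF fall of Irf4 also passed the threshold with only the groups compared (0.0211), and both falls with no low-count filter (0.000458 and 4.65e-05). Of the 8 members, 1 was called from 8 h to 22 h in the IF arm, Irf7, where 1.12% of all genes were called and 4 members had an unadjusted p under 0.05, and 0 in the DC arm, where 0.480% were (0.379% higher and 0.102% lower) and 3 members had an unadjusted p under 0.05. Irf1 stood at -0.87 ± 0.21 in the IF arm (adjusted p 0.0582), and passed the threshold there in 6 alternatives, at adjusted p 0.00312 with no low-count filter, 0.00528 with DESeq2, 0.00556 without both DC libraries numbered 2, 0.0361 with only the groups compared, 0.0405 with a minimum mean of 10 CPM and 0.0476 with library size alone. Irf2 passed it in the IF arm with DESeq2 (-0.48, adjusted p 0.0183) and without both DC libraries numbered 2 (-0.46, adjusted p 0.0439). The interaction, which tests whether the IF-DC difference itself changed from 8 h to 22 h, called 0 of all genes in edgeR with all libraries and the low-count filter, with 858 at an unadjusted p under 0.05. It called 155 genes with no low-count filter, 40 with DESeq2 and 279 without IF 22 h library 1, and 0 members in each of these. Its values were -0.92 ± 0.29 for Irf1 (unadjusted p 0.00629, adjusted p 0.466), -0.76 ± 0.42 for Irf7 and -0.57 ± 0.28 for Irf9. No member was thus shown to differ more between stimuli at 22 h than at 8 h.

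Genes whose log2 CPM ran most like a member's over the 15 libraries were ranked among 6947 genes, as a description of libraries that share groups, depth and scaling. For Irf7 they were Ifi27l2a, Isg15 and Rtp4 (Pearson r 0.971, 0.966 and 0.961), all interferon-induced. For Irf1 they were the guanylate-binding protein gene Gbp6 (0.940), the splicing gene Snrnp70 (0.925) and the peptide transporter gene Tap1 (0.924). For Irf4 they were Pogk (0.936), the T cell adaptor gene Sh2d2a (0.922) and the purine synthesis gene Adss (0.920), and for Irf8 Tbl3 (0.964), Ppa1 (0.962) and the spermidine synthase gene Srm (0.960). The lists of these members had no gene in common.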

How the data were processed

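RNA was measured in 15 libraries in 5 groups of 3, prepared with a CEL-seq protocol that counts the 3′ ends of transcripts, per the labels' protocols. The authors deposited whole-number counts per gene without normalization, and the submitters' processing notes name BWA and the build mm10. The counting program, and whether strand or molecular identifiers were used, are not given in the sources used here. Intervals of fold changes come from the fit and include the spread between libraries, and the limit given for a count of 0 covers counting error only.

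The deposited counts went into edgeR 4.0.16 (R 4.3.3). Genes were kept by filterByExpr (minimum count 10, minimum total count 15), TMM (trimmed mean of M values) gave the library scaling, and 1 quasi-likelihood model held a mean for each of the 5 groups. All p-values are two-sided and adjusted by Benjamini-Hochberg over all genes tested in a comparison, with a threshold of 0.05. Fold changes used a prior count of 0.125. Values are CPM (counts per 1000000 on TMM-scaled totals). The fit was also run on simulated counts that held no libraries standing apart. That run cannot show how such libraries affect the calls.

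The members and gene lists were chosen with earlier results of these data known. Named genes were the 8 members, up to 4 genes of a list with the smallest p-value in a comparison, cell type markers, and the 3 genes most correlated with Irf4, Irf8, Irf1 and Irf7. The lists covered interferon receptors and relay, sensing and activation, type I interferon targets, interferon gamma and Irf1 targets, partner factors, genes raised or lowered with Irf4, and Irf2 binding proteins, beside markers of 9 cell types. Of 185 genes in all, members included, 172 were matched in the tables and the others were not used here.

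The titles number the libraries Don1 to Don3 in every group, without saying whether a number is the same animal throughout, and the numbers were checked for pairing. Among 10 pairs of groups, only DC 8 h and DC 22 h had every same-number correlation of deviations over 0.1, from 0.116 to 0.399, so for that pair of groups a fit with the number as a block was added. That choice was made from these same data. The lowest of these correlations, for number 1, was close to the 0.115 of number 1 between DC 8 h and IF 22 h. A fit of all 15 libraries with the number as a block was run as well, and is given beside the calls it changes. Alternatives changed the scaling, the filter, the test (DESeq2 1.42.0), the libraries in the fit, the block and the depth, or left out libraries.

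Genes were placed with GENCODE vM21 and promoters came from RefSeq on GRCm38.p6, of which mm10 is the browser name. Levels were not tested between genes, and sums over lists weigh each gene by its CPM. A result on 1 gene of the interferon relay is not reported here.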

Additional observations from a re-analysis of the deposited data

How the results depend on the processing

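Of 1140 member results under an alternative, 1040 kept their call or lack of one, 45 lost a call and 54 gained one. The 1 called result that reversed was Irf4 at DC 22 h against unstimulated cells, at -1.16 without both DC libraries numbered 2, and in 65 results called in neither fit the sign changed. With all 15 libraries, TMM scaling and the filter, edgeR called 840 and 739 of 10831 genes with IF and DC at 8 h and 658 and 840 at 22 h. It called 72 and 263 for IF against DC at these times, and 121 and 52 over time in the IF and DC arms. Dropping the low-count filter gave 5 members past the threshold with IF and 3 with DC at 8 h, beside 1167 and 1129 of 17123 genes. At 22 h it gave 4 with IF and 3 with DC, beside 1101 and 1278. For IF against DC at 8 h and 22 h it gave 2 and 5, beside 215 and 706. From 8 h to 22 h it gave 3 with IF and 1 with DC, beside 502 and 251. At IF 8 h it gave 8 higher genes of the interferon gamma list, beside 543 higher of all genes. With only the groups compared the member counts were 5 and 3 with IF and DC at 8 h, beside 1299 of 9454 and 827 of 9920 genes. They were 4 with IF at 22 h, beside 993 of 10005, and 0 and 1 for IF against DC, beside 47 of 9742 and 70 of 10189. Over time in the IF arm 2 members were called (Irf1 and Irf4, not Irf7), beside 100 of 9850 genes. Of the type I interferon list 10 genes were lower with IF than with DC at 22 h, beside 43 lower of all genes. Without both DC libraries numbered 2, the interferon gamma genes higher at DC 8 h were 3, beside 307 higher of 11122 genes. The member counts were then 5 with IF and 2 with DC at 8 h, beside 1415 and 706 of all genes. At 22 h they were 4 with IF and 1 with DC, beside 1130 and 700. Over time they were 4 in the IF arm and 1 in the DC arm, beside 359 and 19. Without both IF 22 h libraries 2 and 3 they were 1 at IF 22 h, 0 for IF against DC at 22 h and 0 over time in the IF arm, with 11 and 1 type I interferon genes lower than in unstimulated cells and than with DC. Library size alone moved the median of all genes against unstimulated cells from between 0.01 and 0.04 to 0.26 with IF and 0.30 with DC at 8 h and 0.22 and 0.37 at 22 h. For IF against DC at 22 h it moved the median from -0.02 to -0.15. Library size alone gave 3 members with DC at 8 h, 1 with IF and 3 with DC at 22 h and 2 over time in the IF arm, beside 1079, 838, 1586 and 112 of 10831 genes. It gave 10 and 9 interferon gamma genes higher with IF and DC at 8 h, beside 849 and 859 higher of all genes. The share called higher against unstimulated cells then moved from between 39.2% and 43.9% to 76.3% and 79.6% for IF and DC at 8 h and 74.1% and 85.4% at 22 h, and for IF over DC at 22 h from 50.6% to 32.8%. DESeq2 gave 2 members at DC 8 h, 1 at DC 22 h and 3 over time in the IF arm, beside 1175, 1267 and 366 of 10822 genes. Thinning to the smallest library gave 2 at DC 8 h and 1 at DC 22 h, beside 659 and 751 of 9535. A minimum mean of 10 CPM gave 2 over time in the IF arm, beside 150 of 6951. Leaving out 1 library of the groups compared gave 0 to 3 members with IF and 1 to 2 with DC at 8 h, beside 419 to 573 and 404 to 665 of all genes. At 22 h it gave 1 to 2 with IF and 0 to 1 with DC, beside 283 to 947 and 454 to 984. For IF against DC at 8 h and 22 h it gave 0 to 1 and 1 to 3, beside 27 to 52 and 90 to 759. Over time it gave 0 to 1 in each arm, beside 24 to 541 with IF and 1 to 138 with DC. The type I interferon genes lower at IF 22 h numbered 16 to 21 against unstimulated cells and 11 to 21 against DC. At each 8 h point 3 to 6 interferon gamma genes were higher. With the replicate number as a block in the fit of all 15 libraries, 0 members differed between IF and DC at 8 h, where Irf7 was at -1.29 (adjusted p 0.0598), and for Irf9 at 22 h the adjusted p was 0.0697. The block fit of the DC groups alone called 1 member, Irf4, among 166 of 10182 genes. The block fit of all 15 libraries changed no other call of a member. The interaction called 279 genes (38 higher, 241 lower) without IF 22 h library 1 and 0 to 3 without any other 1 library. The interferon gamma genes lower at IF 22 h than in unstimulated cells, than with DC and than at IF 8 h, 4, 5 and 9 in the report, numbered 1, 8 and 9 with library size alone, 7, 9 and 13 with DESeq2, 5, 12 and 13 with no low-count filter, 4, 0 and 4 with only the groups compared, 6, 1 and 14 without both DC libraries numbered 2, 0, 0 and 0 without both IF 22 h libraries 2 and 3, and 0 to 4, 0 to 6 and 0 to 10 with 1 library left out. For these alternatives the cause of each move was not tested, except that fewer libraries leave fewer degrees of freedom.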
